A study of Homo sapiens with 6 samples.

Results

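Cyclins, their cyclin-dependent kinases (CDKs) and 4 inhibitors of those kinases were followed in PANC-1, an established human pancreatic carcinoma line, with and without extracellular vesicles (EVs). The EV-labelled group is 3 libraries of cells treated with vesicles derived from cancer-associated fibroblasts (CAFs), the activated fibroblasts of tumour stroma. The control-labelled group is 3 libraries of PANC-1 with no treatment named. The labels' protocol gives all 6 libraries, controls included, one identical account of exposure to vesicles, so the groups rest on titles and treatment labels. Vesicle dose and exposure time are not stated there. Members were the rows of the count table whose symbol is CCN followed by a letter and optional digits, or CDK followed by digits, together with CDKN1B, CDKN1C, CDKN2C and CDKN2D. This took 49 of 32078 named genes, namely 26 cyclins, 19 CDKs and 4 inhibitors. The matricellular CCN1 to CCN6 were left out by the rule.

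Cyclins are regulatory subunits without catalytic activity of their own, and a CDK is active when bound to one. D-type cyclins with CDK4 or CDK6, and then E-type cyclins with CDK2, phosphorylate the retinoblastoma protein in G1 and release E2F factors. Cyclin A acts with CDK2 and CDK1 through S phase and G2, and cyclin B with CDK1 drives mitosis. INK4 inhibitors bind CDK4 and CDK6, and CIP/KIP inhibitors bind cyclin-CDK complexes. Other members of the family, such as CDK7, CDK8, CDK9, CDK12 and CDK13, act on RNA polymerase II. Loss of the INK4 inhibitor p16 is a common lesion of pancreatic carcinoma and leaves the D-type cyclin kinases less restrained.

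Total counts ranged over 21647493 to 27107004 in the EV-labelled libraries and 23616966 to 27498709 in the control-labelled libraries. Levels are given as CPM, the count scaled to the effective library size. The limit set by 0 counts (3 counts) came to 0.109 to 0.139 CPM and covers counting error only. Of 6 epithelial markers, KRT8, KRT18 and KRT19 were abundant (summed list 4812 to 5292 CPM in EV-labelled and 4542 to 5066 CPM in control-labelled libraries), while CDH1 and EPCAM had 0 counts in all 6. KRT19 was lower, at 280 ± 14.7 CPM in EV-labelled and 391 ± 25 CPM in control-labelled libraries without overlap (-0.48 ± 0.06, adjusted p = 5.78e-06), and its part in the results below was not tested. Fibroblast markers summed to 197 to 216 CPM in EV-labelled and 115 to 141 CPM in control-labelled libraries. Most of that was COL1A2, at 186 ± 9.64 CPM in EV-labelled and 114 ± 12.6 CPM in control-labelled libraries, the 1 marker called higher of 2 tested. DCN, LUM, POSTN and THY1 had 0 counts in all libraries, and the part of the COL1A2 difference in the results below was not tested. Immune markers summed to 1.1 to 1.7 CPM in EV-labelled and 1.06 to 1.41 CPM in control-labelled libraries, and endothelial markers to 4.42 to 5.36 CPM in EV-labelled and 4.28 to 5.06 CPM in control-labelled libraries. Mitochondrially encoded genes took 0.747% to 1.04% of counts in EV-labelled and 0.749% to 1.06% in control-labelled libraries.

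In the EV-labelled libraries 4 of 5 cyclins of G1 and G1/S, 2 of 4 cyclins of S phase and mitosis and 3 of 4 tested cell cycle CDKs were higher. CCND2 and CDK6 were lower. Of 7 tested kinases of transcription, 3 were lower and 0 higher, a share called (42.9%) close to the 40.9% of all tested genes. Of the 49 members, 44 had enough counts to be tested. At an adjusted p under 0.05 in edgeR's quasi-likelihood test, 16 were higher and 10 lower. That is 59.1% of the tested members, against 40.9% of all 14670 genes tested. With a filter of 1 CPM in 3 libraries instead, 15 of the 44 members were higher and 10 lower, against 45% of 12955 genes called. In the main comparison, higher calls made up 36.4% of tested members and 20.2% of all tested genes, and lower calls 22.7% of members and 20.7% of all. The median log2 fold change, EV-labelled over control-labelled, was 0.06 over tested members and -0.01 over all tested genes. The EV-labelled and control-labelled CPM did not overlap for 29 of the 44 tested members, and for 50.6% of all tested genes. Most changes were small. Called members at least 1.5-fold changed numbered 7 of the 44 tested, against 1628 (11.1%) of all 14670 tested genes. They were CCND2, CCND3, CCNE1, CCNE2, CCNF, CDK1 and CDK6. Called members at least 2-fold changed numbered 2 of the 44, CCND2 and CCNE2, against 559 (3.81%) of all, a similar share.

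**Figure D1:**
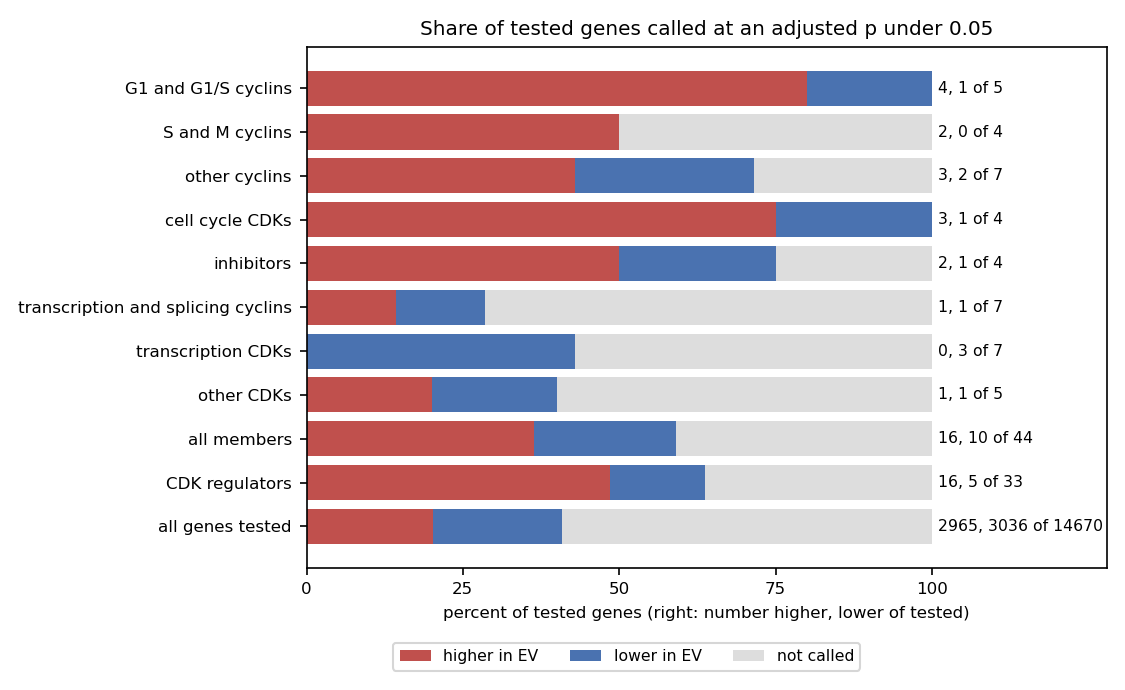
Percent of tested genes called higher (red) or lower (blue) in EV-labelled libraries at an adjusted p under 0.05, for each role group, all 44 tested members, the 33 tested CDK regulators and all 14670 tested genes. All 5 G1 and G1/S cyclins and all 4 tested cell cycle CDKs were called, while transcription CDKs had 3 lower and 0 higher calls.

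The D-type cyclins, which couple growth signals to CDK4 and CDK6, moved in both directions. CCND1 was at 212, 218 and 234 CPM in the EV-labelled libraries, against 168, 165 and 168 CPM in the control-labelled libraries. The groups did not overlap, and CCND1 rose 1.33-fold (log2 fold change 0.41 ± 0.06 SE, adjusted p = 1.71e-05). CCND3 was at 87.4, 87.5 and 87.8 CPM in the EV-labelled libraries, against 52.9, 51.3 and 34.7 CPM in the control-labelled libraries. Control replicate 3 lay well under its group, the groups still did not overlap, and CCND3 rose 1.89-fold (0.92 ± 0.10, adjusted p = 1.24e-06). Without that library the log2 fold change was 0.75, the lowest of the 6 fits that each left out 1 library. CCND2 was scarce, at 1.33, 1.88 and 2.41 CPM in the EV-labelled libraries, against 4.63, 5.01 and 4.77 CPM in the control-labelled libraries. It rested on 36, 41 and 60 counts in the EV-labelled and 108, 137 and 130 counts in the control-labelled libraries, and fell 2.57-fold (-1.36 ± 0.19, adjusted p = 1.15e-05).

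The makeup of the D-type cyclin transcripts therefore differed between the groups. Per exon length, CCND1 made up 74.9% ± 0.826 of the summed level of the 3 genes in the EV-labelled libraries and 80.0% ± 3.36 in the control-labelled ones (n = 3 each, ± SD). CCND3 made up 24.7% ± 0.928 in EV-labelled and 18.4% ± 3.41 in control-labelled libraries, and CCND2 made up 0.426% ± 0.107 in EV-labelled and 1.56% ± 0.0880 in control-labelled libraries. None of these shares overlapped between the groups. Such shares are formed within a library, so no scaling between libraries enters them. They were chosen with the fold changes known, and no test was run on them or on the ratios below.

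E-type cyclins, the activators of CDK2 at the G1/S step, were both higher. CCNE1 was at 40.1, 45.1 and 42.0 CPM in the EV-labelled libraries, against 25.8, 25.3 and 25.9 CPM in the control-labelled libraries. The control-labelled libraries lay within 1 CPM of each other and well under every EV-labelled one, a 1.65-fold rise (0.72 ± 0.07, adjusted p = 2.7e-07). CCNE2 was far scarcer per exon length (1.18 CPM per kilobase in EV-labelled and 0.471 in control-labelled libraries) than CCNE1 (16.6 in EV-labelled and 10.1 in control-labelled libraries). It was at 4.55, 5.87 and 5.14 CPM in the EV-labelled libraries, against 2.7, 1.97 and 1.54 CPM in the control-labelled libraries. It had the largest rise of the tested members, 2.52-fold, without overlap between the groups (1.33 ± 0.19, adjusted p = 1.56e-05). In GENCODE v29, 37.0% of the exon bases of CCNE2 lie opposite exons of INTS8, an Integrator subunit gene that was itself higher (0.22 ± 0.07, adjusted p = 0.0239). The library kit keeps strand, but no source at hand says whether the counting used it, so the part of INTS8 reads in CCNE2 was not tested.

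**Figure D2:**
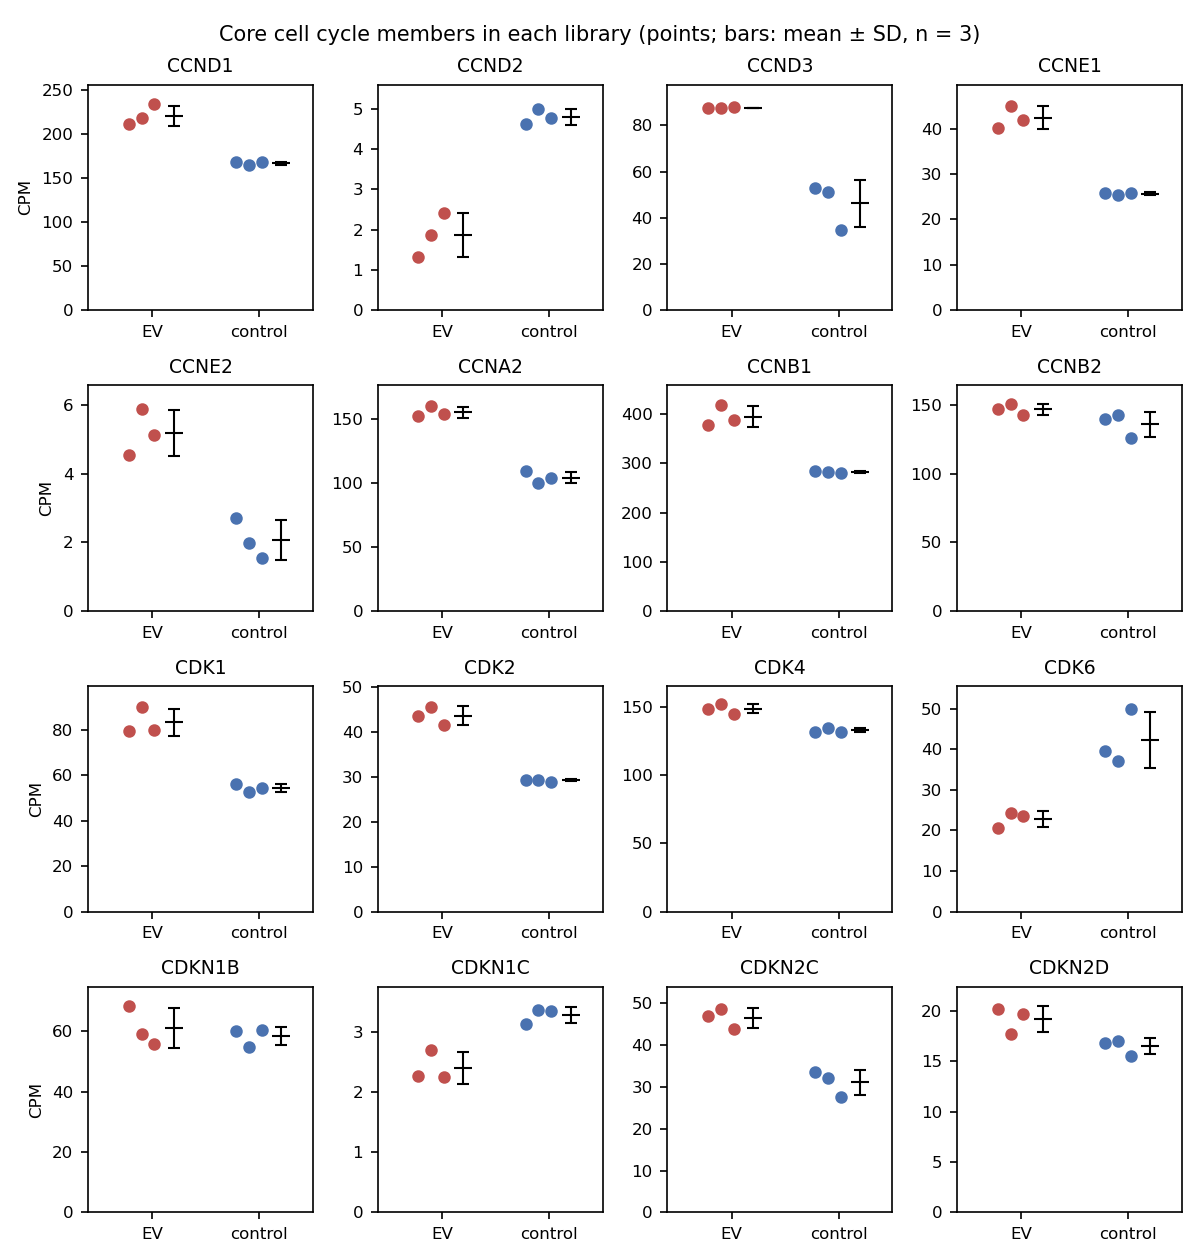
CPM of 16 core cell cycle members in each of the 3 EV-labelled (red, left) and 3 control-labelled (blue, right) libraries, with black bars for mean ± SD and every axis starting at 0. Groups do not overlap for any gene shown except CDKN1B, and CCND2 and CDK6 are lower in the EV-labelled libraries whereas CCND1, CCND3, CCNE1 and CCNE2 are higher.

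Among the cyclins of S phase and mitosis, CCNA2 and CCNB1 rose and CCNB2 did not pass. CCNA2, the cyclin A of somatic cells, was at 152, 160 and 154 CPM in the EV-labelled libraries, against 109, 100 and 104 CPM in the control-labelled libraries. CCNB1, the main mitotic cyclin, was at 378, 418 and 389 CPM in the EV-labelled libraries, against 284, 282 and 280 CPM in the control-labelled libraries. The groups were clearly apart for both genes, with a log2 fold change of 0.57 ± 0.06 for CCNA2 (adjusted p = 3.38e-07) and 0.49 ± 0.06 for CCNB1 (adjusted p = 2.13e-06). CCNB2, the second somatic B-type cyclin, was at 147, 151 and 143 CPM in the EV-labelled libraries, against 140, 143 and 126 CPM in the control-labelled libraries. Its groups touched without overlapping, and its 95% interval of -0.02 to 0.23 (log2) lay under that of CCNB1, 0.37 to 0.60. The ratio of CCNB1 to CCNB2 per exon length was 2.94 ± 0.11 in EV-labelled and 2.27 ± 0.14 in control-labelled libraries (SD, n = 3 each), with no overlap. CCNB3, a B-type cyclin best known from meiosis, was at 2.11, 2.66 and 2.37 CPM in the EV-labelled libraries, against 2.96, 2.93 and 3.04 CPM in the control-labelled libraries (-0.33 ± 0.17, adjusted p = 0.132). These are bulk libraries, in which more cells in a phase of the cycle and more transcript per cell cannot be told apart.

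Of the CDKs that drive the cycle, CDK1, CDK2 and CDK4 rose and CDK6 fell. CDK1, the mitotic kinase, was at 79.7, 90.1 and 80.0 CPM in the EV-labelled libraries, against 56.0, 52.5 and 54.3 CPM in the control-labelled libraries (0.62 ± 0.07, adjusted p = 6.11e-07). CDK2, the partner of cyclins E and A, was at 43.6, 45.7 and 41.6 CPM in the EV-labelled libraries, against 29.4, 29.4 and 29 CPM in the control-labelled libraries (0.58 ± 0.07, adjusted p = 2.62e-06). For both kinases every EV-labelled library lay above every control-labelled one. CDK6 was at 20.7, 24.4 and 23.6 CPM in the EV-labelled libraries, against 39.6, 37.0 and 50 CPM in the control-labelled libraries. Control replicate 3 was the highest of its group and the groups were far apart, a 1.85-fold fall (-0.89 ± 0.10, adjusted p = 1.2e-06), with -0.75 as the value nearest 0 when any 1 library was left out.

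CDK4, the other kinase of D-type cyclins, was at 149, 152 and 145 CPM in the EV-labelled libraries, against 132, 135 and 132 CPM in the control-labelled libraries. Its rise was small (0.16 ± 0.06, adjusted p = 0.0249) and lost its call in 4 of the 6 fits without 1 library. Exons of TSPAN31 lie opposite 43.2% of its exon bases, and TSPAN31 was at 5.34 ± 0.396 CPM in EV-labelled and 6.64 ± 1.11 CPM in control-labelled libraries (adjusted p = 0.0787). The ratio of CDK4 to CDK6 per exon length was 25.3 ± 2.21 in EV-labelled and 12.4 ± 1.99 in control-labelled libraries (SD, n = 3 each). The lowest EV-labelled ratio was 23.9 and the highest control-labelled one 14.1. CDK3 had 2 to 7 counts in EV-labelled and 1 to 4 counts in control-labelled libraries and was not tested, and 91.2% of its exon bases are shared with the readthrough gene TEN1-CDK3.

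The stretch before the start of 5 members is shown because cell cycle genes of mitosis are known for a CCAAT box, bound by NF-Y, and a cell cycle homology region (CHR), bound by the DREAM and B-MYB complexes. RefSeq promoter windows (GRCh38.p14) were found for 44 of the 49 members and not for CCND1, CCND2, CCNE2, CDK2 and CDKN1C. The 250 bases before each start were searched on both strands for CCAAT, for the CHR letters TTTGAA and for TTTNNCGC, letters like those of an E2F site, and matches are in capitals. No matches of different motifs overlapped in the 65 windows of members. The first 3 sequences belong to members that rose, the fourth to CCNB2, which did not pass, and the fifth to CDK6, which fell.
CDK1, chr10:60778228-60778477, plus strand, 5′ to 3′: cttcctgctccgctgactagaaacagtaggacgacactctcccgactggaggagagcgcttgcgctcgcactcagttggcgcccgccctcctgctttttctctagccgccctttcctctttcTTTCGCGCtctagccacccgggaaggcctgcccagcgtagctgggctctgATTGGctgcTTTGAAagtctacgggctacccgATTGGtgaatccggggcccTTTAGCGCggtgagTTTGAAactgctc
CCNB1, chr5:69166900-69167149, plus strand, 5′ to 3′: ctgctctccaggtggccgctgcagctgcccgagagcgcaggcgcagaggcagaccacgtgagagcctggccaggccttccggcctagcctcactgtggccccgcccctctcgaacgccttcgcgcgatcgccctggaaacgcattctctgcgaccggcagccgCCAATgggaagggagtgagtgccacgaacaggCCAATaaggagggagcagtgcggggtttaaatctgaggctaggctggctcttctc
CCNA2, chr4:121823884-121824133, minus strand, 5′ to 3′: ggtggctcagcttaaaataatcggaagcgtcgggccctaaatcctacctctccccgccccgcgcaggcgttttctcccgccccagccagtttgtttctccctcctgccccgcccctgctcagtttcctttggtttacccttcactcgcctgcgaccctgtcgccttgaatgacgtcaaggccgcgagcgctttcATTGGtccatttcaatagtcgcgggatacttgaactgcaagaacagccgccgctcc
CCNB2, chr15:59104896-59105145, plus strand, 5′ to 3′: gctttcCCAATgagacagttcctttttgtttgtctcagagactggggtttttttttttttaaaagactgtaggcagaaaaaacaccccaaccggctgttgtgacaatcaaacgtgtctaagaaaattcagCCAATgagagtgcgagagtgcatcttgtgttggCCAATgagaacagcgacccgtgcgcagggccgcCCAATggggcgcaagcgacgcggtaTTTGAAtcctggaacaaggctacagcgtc
CDK6, chr7:92836574-92836823, minus strand, 5′ to 3′: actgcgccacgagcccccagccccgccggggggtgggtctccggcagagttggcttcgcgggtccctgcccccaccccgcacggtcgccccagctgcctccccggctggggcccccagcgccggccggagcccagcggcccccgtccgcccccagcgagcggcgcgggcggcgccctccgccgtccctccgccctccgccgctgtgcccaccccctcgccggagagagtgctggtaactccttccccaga

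CCNA2 and CCNB1 held CCAAT matches and no TTTGAA, and the downstream CDK1 window held all 3 motifs. Other spellings of a CHR were not searched, so a window without TTTGAA may still hold a CHR. CCNB2 held 4 CCAAT matches and TTTGAA, and CDK6 held none of the 3 in either of its windows. Over all genes with a window, 37.0% held CCAAT, 16.1% TTTGAA and 7.15% TTTNNCGC in at least 1 window, against 45.5%, 13.6% and 15.9% of the 44 members. CCAAT and TTTGAA stood together in 1 window for 5 members and for 5.79% of all genes. The 5 members were CCNC, CCNF and CDK1, which rose, CCNB2, which did not pass, and CDK19, which fell. Matches counted at any position, with TTTGAA at -226 in CDK19, -182 in CCNC and -29 in CCNB2. A link of these letters to the direction of change was not tested.

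The 4 inhibitors were not changed in a common direction. CDKN2C, the INK4 protein p18, was at 47.0, 48.7 and 43.9 CPM in the EV-labelled libraries, against 33.5, 32.1 and 27.7 CPM in the control-labelled libraries. Its groups did not overlap and its rise rounded to 1.5-fold, just under that threshold (0.58 ± 0.08, adjusted p = 9.66e-06). CDKN2D, the INK4 protein p19, was at 20.2, 17.7 and 19.7 CPM in the EV-labelled libraries, against 16.8, 17.0 and 15.5 CPM in the control-labelled libraries. The call was at the edge (0.22 ± 0.09, adjusted p = 0.0483) and was kept in 1 of the 6 fits without 1 library, in which the adjusted p ranged over 0.0369 to 0.142. It was lost in DESeq2 (adjusted p = 0.0718).

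CDKN1B, the CIP/KIP inhibitor p27, was at 68.5, 59.1 and 55.7 CPM in the EV-labelled libraries, against 60.2, 54.9 and 60.3 CPM in the control-labelled libraries. Its groups overlapped, with a log2 fold change of 0.07 and a 95% interval of -0.09 to 0.22 (adjusted p = 0.51). CDKN1C, the CIP/KIP inhibitor p57, was scarce, at 2.26, 2.7 and 2.25 CPM in the EV-labelled libraries, against 3.13, 3.36 and 3.34 CPM in the control-labelled libraries. It was called lower (-0.45 ± 0.17, adjusted p = 0.035) without overlap between the groups, but on 56 to 61 counts in EV-labelled and 73 to 92 counts in control-labelled libraries. The call was kept in 2 of the 6 fits without 1 library and lost in DESeq2 (adjusted p = 0.146). CDKN2C was called in DESeq2 and in all 6 fits without 1 library.

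**Figure D3:**
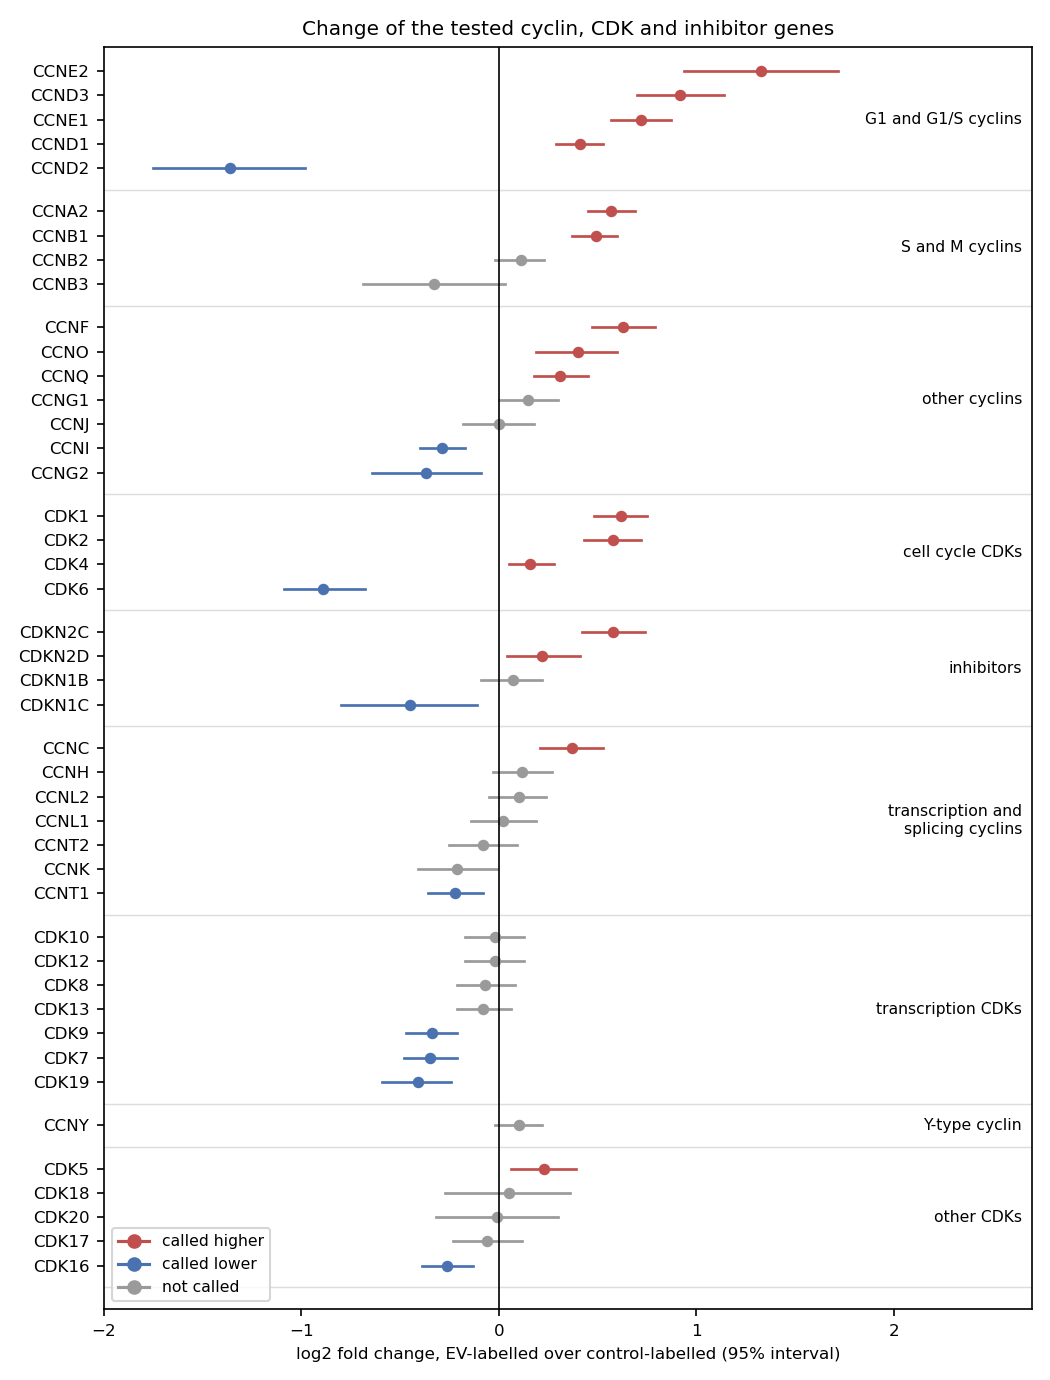
Log2 fold change, EV-labelled over control-labelled, of the 44 tested members with 95% intervals, by role group, in red where called higher, blue where called lower and grey where not called. CCNE2 (1.33) and CCND2 (-1.36) lie farthest from 0, and the 7 transcription CDKs lie under 0, of which CDK10 and CDK12 changed sign when some libraries were left out.

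Further cyclins linked to the cycle, to DNA damage or to development had 3 higher and 2 lower calls among 7 tested. That is 42.9% higher and 28.6% lower, against 20.2% and 20.7% of all tested genes. The lower call of CCNG2 had overlapping groups. CCNF, the F-box cyclin that targets proteins for ubiquitination in G2, was at 80.6, 93.8 and 92.7 CPM in the EV-labelled libraries, against 62.1, 59.1 and 51.0 CPM in the control-labelled libraries. It had the largest rise of the 7, 1.55-fold, with no overlap (0.63 ± 0.08, adjusted p = 2.85e-06). CCNI, an atypical cyclin without a strong cycle in its level, was at 237, 242 and 231 CPM in the EV-labelled libraries, against 288, 293 and 285 CPM in the control-labelled libraries. The spread within each group was small beside that gap, and CCNI fell (-0.29 ± 0.05, adjusted p = 0.000348).

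CCNO, known for its part in forming multiciliated cells, rose (0.40 ± 0.10, adjusted p = 0.00309), as did CCNQ, the activator of CDK10 (0.31 ± 0.06, adjusted p = 0.000779). CCNG2, which is linked to growth arrest, was called lower with overlapping groups, at 10.8, 8.39 and 8.24 CPM in the EV-labelled libraries, against 12.8, 9.69 and 13 CPM in the control-labelled libraries (-0.37 ± 0.13, adjusted p = 0.0306). It kept its call in 2 of the 6 fits without 1 library and lost it in DESeq2 (adjusted p = 0.0585). CCNG1, a p53 target, was at 177 ± 16.8 CPM in EV-labelled and 160 ± 11.2 CPM in control-labelled libraries and did not pass (adjusted p = 0.099), although it did without EV replicate 3 (0.23, adjusted p = 0.0162). CCNJ was at 21.9 ± 1.55 CPM in EV-labelled and 21.8 ± 1.64 CPM in control-labelled libraries. CCNI2 and CCNP had at most 8 counts in any library and were not tested.

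Of 7 cyclins of transcription and splicing 1 was higher and 1 lower, or 28.6% called, and of 7 CDKs of transcription 0 were higher and 3 lower, or 42.9% called, against 40.9% of all tested genes. By direction, 20.2% of all tested genes were higher and 20.7% lower. In the CDK-activating kinase, which also opens transcription as part of TFIIH, CDK7 was at 44.4, 44.6 and 41.1 CPM in the EV-labelled libraries, against 52.4, 56.5 and 56.5 CPM in the control-labelled libraries. Its groups did not overlap and it fell (-0.35 ± 0.07, adjusted p = 0.000353). Its partner CCNH was at 39.5 ± 2.80 CPM in EV-labelled and 36.3 ± 1.11 CPM in control-labelled libraries (0.12 ± 0.07, adjusted p = 0.19), and the assembly factor MNAT1 was at 0.13 ± 0.10 (log2, adjusted p = 0.336). The ratio of CCNH to CDK7 per exon length was 0.362 ± 0.0158 in EV-labelled and 0.262 ± 0.0114 in control-labelled libraries (SD, n = 3 each), without overlap.

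In P-TEFb, the kinase that releases paused polymerase, the kinase and 1 of its cyclins fell. CDK9 was at 66.6, 66.2 and 69.4 CPM in the EV-labelled libraries, against 87.4, 90.0 and 78.6 CPM in the control-labelled libraries. Every EV-labelled library lay under every control-labelled one (-0.34 ± 0.06, adjusted p = 0.000335). CCNT1 was at 35.6, 35.2 and 35.6 CPM in the EV-labelled libraries, against 43.1, 39.1 and 41.9 CPM in the control-labelled libraries (-0.22 ± 0.07, adjusted p = 0.0139), and kept its call in 4 of the 6 fits without 1 library. CCNT2, the alternative cyclin of P-TEFb, was at 25.4 ± 1.15 CPM in EV-labelled and 26.8 ± 2.17 CPM in control-labelled libraries, with a 95% interval of -0.25 to 0.09 (log2).

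In the kinase module of Mediator, the bridge between activators and polymerase, members had calls in both directions. CCNC, its cyclin, was at 48.1, 52.8 and 44.3 CPM in the EV-labelled libraries, against 35.0, 37.2 and 39.9 CPM in the control-labelled libraries, and rose without overlap (0.37 ± 0.08, adjusted p = 0.000693). CDK19, 1 of its alternative kinases, was at 31.3 ± 1.59 CPM in EV-labelled and 41.7 ± 5.30 CPM in control-labelled libraries and fell (-0.41 ± 0.09, adjusted p = 0.000713). CDK8, the other kinase, was at 32.8 ± 0.338 CPM in EV-labelled and 34.4 ± 1.16 CPM in control-labelled libraries and did not pass (-0.07, 95% interval -0.21 to 0.08). MED12, the subunit that activates the kinase, fell (-0.32 ± 0.08, adjusted p = 0.00259), and MED13, which links the module to the rest of Mediator, did not pass (-0.16 ± 0.07, adjusted p = 0.0755). The ratio of CCNC to CDK19 per exon length was 2.01 ± 0.174 in EV-labelled and 1.18 ± 0.234 in control-labelled libraries, without overlap. The ratio of CDK8 to CDK19 was 2.22 ± 0.129 in EV-labelled and 1.77 ± 0.289 in control-labelled libraries, and its groups overlapped.

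The kinases of the elongating polymerase, CDK12 and CDK13, were at -0.02 ± 0.07 and -0.08 ± 0.06 on the log2 scale and did not pass, nor did their cyclin CCNK (-0.21 ± 0.10, adjusted p = 0.0935). CCNK passed without control replicate 3 (-0.29, adjusted p = 0.0231), and 59.5% of its exon bases lie opposite exons of CCDC85C, which was higher (0.49 ± 0.06, adjusted p = 5.23e-06). CDK10 was at 37.1 ± 2.12 CPM in EV-labelled and 37.5 ± 1.90 CPM in control-labelled libraries, while its activator CCNQ rose. CCNL1 and CCNL2, cyclins linked to splicing, did not pass, at 0.02 ± 0.08 and 0.10 ± 0.07 on the log2 scale.

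**Figure D4:**
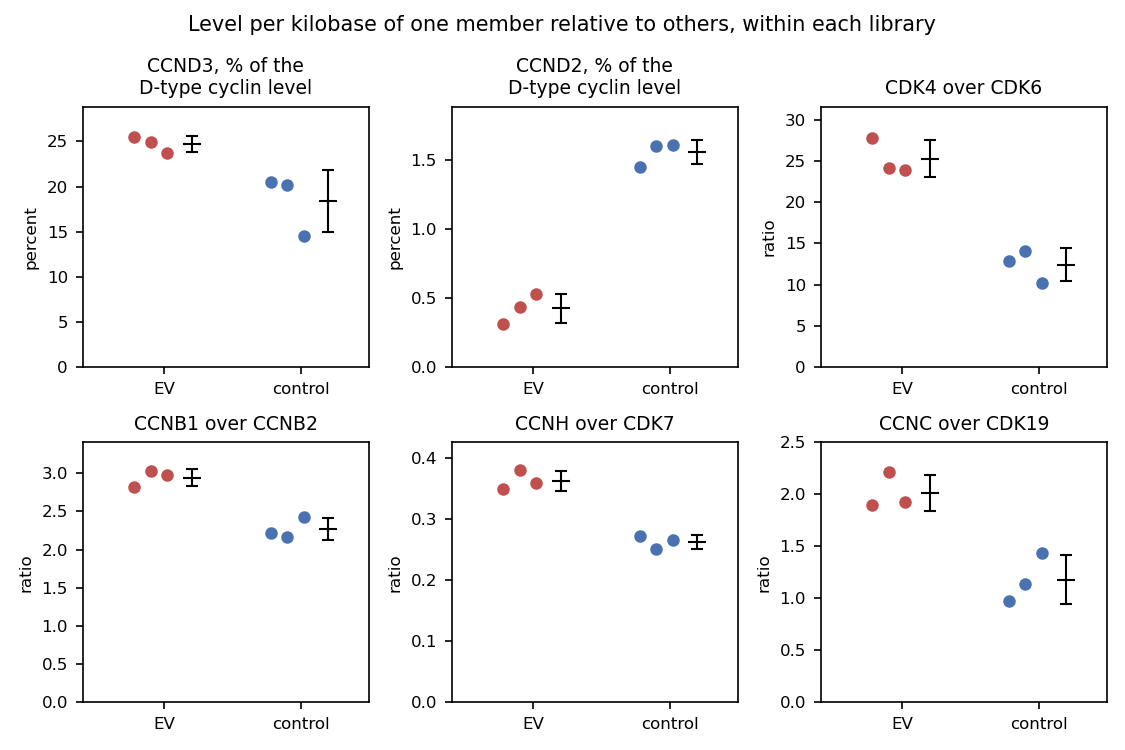
Ratio or share of the level per kilobase of exon between members of one family or complex, in each EV-labelled (red, left) and control-labelled (blue, right) library, with black bars for mean ± SD (n = 3). In all 6 panels the groups do not overlap, and the ratio of CDK4 to CDK6 was 25.3 in EV-labelled and 12.4 in control-labelled libraries. The panels were chosen with the fold changes known, and the ratio of CDK8 to CDK19, whose groups overlap, is not drawn. For CDK4 over CDK6 and CCNC over CDK19 the gap follows from each gene changing in opposite directions without overlap.

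Among the remaining kinases, CDK16, a PCTAIRE kinase activated by CCNY at membranes, was the CDK with the highest level per exon length. It was at 518, 527 and 537 CPM in the EV-labelled libraries, against 665, 656 and 572 CPM in the control-labelled libraries, and fell without overlap (-0.26 ± 0.06, adjusted p = 0.00261). CCNY was at 112 ± 2.7 CPM in EV-labelled and 105 ± 1.64 CPM in control-labelled libraries and did not pass (0.10 ± 0.06, adjusted p = 0.171). CDK5, best known from neurons, was at 25.3, 24.3 and 25.8 CPM in the EV-labelled libraries, against 20.4, 21.5 and 22.5 CPM in the control-labelled libraries. It was called higher (0.23 ± 0.08, adjusted p = 0.027), though in 2 of the 6 fits without 1 library, and its activator CDK5R1 was higher too (0.57 ± 0.13, adjusted p = 0.00122). Exons of SLC4A2 lie opposite 11.3% of the exon bases of CDK5. SLC4A2 was at 159 ± 6.41 CPM in EV-labelled and 151 ± 3.65 CPM in control-labelled libraries (adjusted p = 0.343), and the part of its reads in CDK5 was not tested. CDK17, CDK18 and CDK20 did not pass and lay at -0.06, 0.05 and -0.01 on the log2 scale. CDK14 had 1 count in all, and CDK15 had 0 counts in all 6 libraries.

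Levels per exon length differed widely among tested members. CCNB1 was the highest, at 154 CPM per kilobase of exon in EV-labelled and 110 in control-labelled libraries, followed by CDK16, CCNI and CCNG1. CDK4 (47.0 in EV-labelled and 42.0 in control-labelled libraries) lay far above CDK6 (1.87 in EV-labelled and 3.44 in control-labelled libraries), so CDK4 made up most of the transcripts of the D-type cyclin kinases in either group. CCND1 likewise lay above CCND3 and CCND2, with 45.8, 15.1 and 0.262 CPM per kilobase for CCND1, CCND3 and CCND2 in EV-labelled libraries and 34.5, 7.98 and 0.671 for the same genes in control-labelled libraries. Among the 4 inhibitors followed, CDKN1B was the most abundant, at 21.7 CPM per kilobase in EV-labelled and 20.8 in control-labelled libraries. Other CDK inhibitor genes lay outside the rule and were not ranked. Exon lengths were those of all GENCODE v29 exons of a gene, whichever isoform these cells use, so these levels are approximate.

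**Figure D5:**
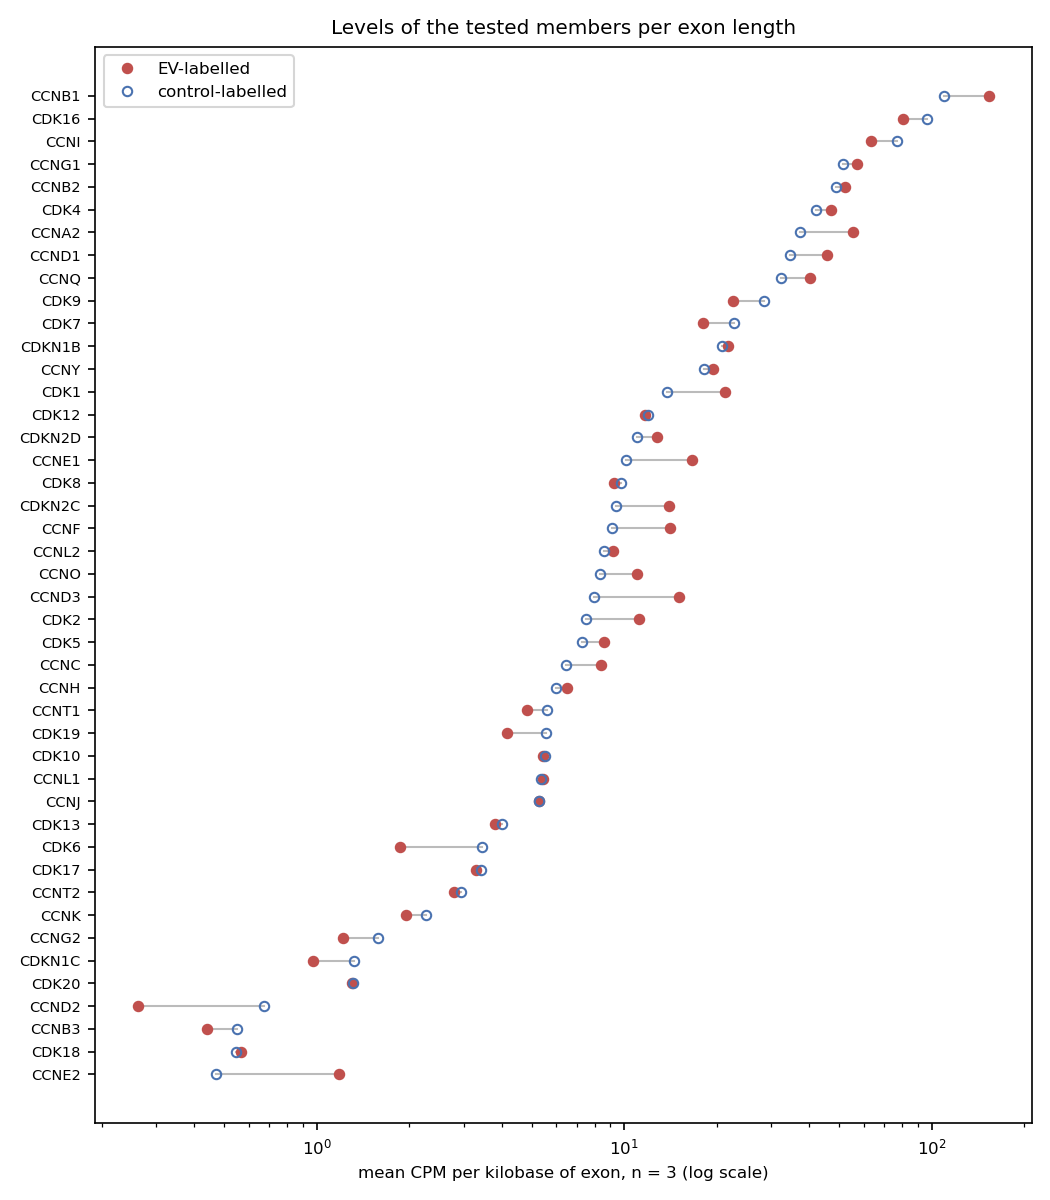
Mean CPM per kilobase of exon (log scale, n = 3) of the 44 tested members in EV-labelled (filled red) and control-labelled (open blue) libraries, ordered by the control-labelled level. The lines between points are longest for CCND2 and CDK6, lower in EV-labelled libraries, and for CCNE2, CCND3 and CCNE1, higher in EV-labelled libraries.

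Other genes that set CDK activity or cyclin levels were taken from a list of 34. Of 33 tested, 16 were higher and 5 lower (63.6%, against 40.9% of all tested genes), with a median log2 fold change of 0.14. The lower count depended on the setting, at 2 with median-ratio scaling, library totals alone or no count filter and 6 with upper-quartile scaling, whereas 16 were higher in all 4. Without 1 library 15 to 16 were higher and 2 to 3 lower. CDC25A, the phosphatase that activates CDK2, was at 35.8, 40.3 and 41.8 CPM in the EV-labelled libraries, against 20.4, 21.4 and 21.4 CPM in the control-labelled libraries, the largest change of the list (0.90 ± 0.08, adjusted p = 4.93e-08). SKP2, the ubiquitin ligase subunit that marks p27 for degradation, rose (0.66 ± 0.07, adjusted p = 1.06e-06), while CDKN1B, which encodes p27, did not pass. CDK2AP1, a CDK2-binding protein, rose as well (0.49 ± 0.06, adjusted p = 4.89e-06). The inhibitory kinases of CDK1 also rose, WEE1 by 0.52 ± 0.07 and PKMYT1 by 0.29 ± 0.06 on the log2 scale. The lower members with the lowest adjusted p were ENSA, a mitotic inhibitor of the phosphatase PP2A-B55 (-0.23 ± 0.06, adjusted p = 0.00258), MED12, and CDC25B, a phosphatase that activates CDK1 (-0.14 ± 0.05, adjusted p = 0.0459), whose call was lost in all 6 fits without 1 library. ARPP19 (0.40 ± 0.07, adjusted p = 0.000101) and MASTL (0.51 ± 0.07, adjusted p = 1.49e-05), of the same pathway as ENSA, were higher.

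Among members that neighbour each other on a chromosome, 1 pair moved in opposite directions and 1 in the same direction. On chromosome 5 the start of CDK7 lies 67.7 kilobases from that of CCNB1 (GRCh38.p14), and CDK7 fell while CCNB1 rose. On chromosome 4 the starts of CCNI and CCNG2 lie 81.2 kilobases apart on opposite strands, and both were called lower. These were the 2 pairs within 1 megabase among the 44 members with a RefSeq promoter window. The groups overlapped for CCNG2, whose call was lost in DESeq2 (adjusted p = 0.0585) and kept in 2 of the 6 fits without 1 library.

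The authors' deposited table of their own comparison, whose fold changes run control-labelled over EV-labelled, held 47 of the members. A q under 0.05 stood beside 25 of them in the authors' deposited table, and all 25 were called by edgeR. CCNG2 was called by edgeR and had a q of 0.0584 in the authors' deposited table. It marks CCND2 as Up, with a log2 fold change of 1.35, and CCNE2 as Down, with -1.35, in the authors' deposited table, which by its own group means is lower and higher in the EV-labelled libraries. Both comparisons rest on the same libraries.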

How the data were processed

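Poly(A) RNA of 6 libraries was sequenced. The authors deposited raw whole-number counts per gene. TopHat, RSEM and hg19 appear in the submitters' processing notes without versions or roles, and no source at hand names the annotation. A second deposited table holds the authors' comparison, with log2 means and fold changes, p-values and q-values. Loci without a gene name (375 of 32453 features, 0.099% to 0.134% of counts) were left out. Genes passing filterByExpr entered edgeR 4.0.16 under R 4.3.3 (glmQLFit, glmQLFTest, TMM factors, prior count 0.125, two-sided, Benjamini-Hochberg over all tested genes, called at an adjusted p under 0.05), which was tested on simulated data. SE is the log2 coefficient over the square root of F, and intervals are 95%. Labels name no separate cultures, so p-values measure only how these libraries vary, and that variation may be technical. No library pair agreed within sampling noise. Members and lists were chosen with earlier results of these data known. Every member is named. Values of each library are given for the core cell cycle genes and for the 2 called members with the lowest adjusted p in each other role group. From the CDK regulators the 3 called in each direction at the lowest adjusted p are named. Outside this rule, after values were seen, WEE1, PKMYT1, ARPP19, MASTL, MNAT1, MED13, CDK5R1 and the overlapping genes were named. CCNG2 and CDC25A were given by library outside the rule as well. Alternatives included DESeq2 1.42.0 and limma-voom 3.58.1.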

Additional observations from a re-analysis of the deposited data

How the results depend on the processing

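Other settings were 3 scalings, 2 filters, DESeq2, limma-voom, 2 stricter thresholds, the replicate block and each library left out in turn. Of the 26 called members, 20 kept their call in all 6 fits without 1 library, and the same number in the 15 settings other than the 1.5-fold threshold. No called member changed sign. The 3 scalings moved the median of all genes by at most 0.020 (log2). With at least 1.5-fold required, 5 members were called higher and 2 lower (5 cyclins, 2 CDKs and 0 inhibitors, against 3 inhibitors in edgeR and 1 in DESeq2 with no fold required), with 2 CDK regulators and 1628 genes in all. The count of inhibitors called, 3, was 1 with no count filter, with DESeq2, at an adjusted p under 0.01 and with the replicate block, and 1 to 3 without 1 library, leaving CDKN2C. Without 1 library, higher members ranged over 13 to 15, lower members 8 to 9, cyclins 12 to 14, CDKs 7 to 8, CDK regulators 17 to 19 and all genes 4756 to 5612. With the replicate block 14 members were higher and 9 lower, 2 CDK regulators were lower instead of 5, and CDK4 was at an adjusted p of 0.0504, CDKN1C at 0.0515 and CDKN2D at 0.0686. Replicate numbers did not pair the libraries: same-numbered libraries correlated at -0.021, -0.009 and -0.011 in their deviations from the group means. Members that did not pass changed sign without 1 library for CDKN1B (-0.02 to 0.14), CDK10 (-0.04 to 0.04), CDK12 (-0.08 to 0.05), CDK17 (-0.10 to 0.02), CDK18 (-0.01 to 0.13), CDK20 (-0.12 to 0.21) and CCNL1 (-0.04 to 0.11), and CDK20 with limma-voom (0.01). CCNJ, at 0 in the main comparison, ranged over -0.06 to 0.07. The cause of these shifts was not tested. CCND2, CCNE2 and CDKN1C rest on the fewest counts among called members.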
